A study of Mus musculus with 6 samples.

Results

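Markers of T cells, natural killer (NK) cells and B cells were examined in the liver of mice that received trichloroethylene (TCE), a chlorinated industrial solvent. The markers were 36 genes: 19 of T cells, 10 of NK cells and other cytotoxic lymphocytes, and 7 of B cells. Every non-control probe whose gene symbol in the array annotation is one of these genes was taken, which gave 48 probes for 36 genes, out of 55681 probes and 24239 gene symbols on the array. Liver RNA came from 6 male mice of the B6C3F1 strain, labelled as 7 weeks of age. The control group was 3 mice given corn oil by mouth, and the TCE group was 3 mice given 1000 mg/kg b.w. of TCE per day in the same oil, with both groups dosed for 5 days. Each mouse had its own Cy3-labelled array, and no RNA was pooled. The RNA came from whole frozen liver, in which lymphocytes are a minority among hepatocytes, so that the readings carry no separation of the cell types.

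Lymphocytes recognise their targets through receptors that are built from a variable part and a set of invariant signalling chains. In T cells the invariant chains are the CD3 proteins and the zeta chain, and the kinases Lck and Zap70 carry the signal onward, with CD4 or CD8 as co-receptor. B cells signal through the CD79 pair and mature into plasma cells that secrete antibody. NK cells kill without a rearranged receptor, through perforin and granzymes, and are known to be abundant among the lymphocytes of the mouse liver.

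Signals are given as log2 of the background-subtracted intensity after quantile normalization, which gives all arrays the same distribution. The scanner software marks each spot as well above background or not. A probe entered the test if either group had it well above background in all 3 of its mice, and 22731 probes met this. Groups were compared with limma, two-sided, in which the spread of a probe is estimated with help from the others, and p was adjusted by Benjamini-Hochberg over all tested probes. A call needed a 2-fold change or more with an adjusted p of at most 0.05. A gene with several probes was represented by its tested probe with the highest mean signal. Between 23537 and 24965 probes per array were well above background, 0 spots were saturated, and the correlation between arrays ranged from 0.971 to 0.990 across tested probes. The 10 hepatocyte markers examined, among them Alb and Ttr, were well above background on all 6 arrays. Slide 1 with its scan held only control mouse 1, and slide 2 held the remaining 5 mice. The 3 mice of a group are separate animals, and the number of arrays limits the precision.

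Most lymphocyte markers were at or near the detection limit in whole liver. Of the 36 genes, 11 could be tested: Cd3e, Cd4, Cd7, Lck and Zap70 of 19 T cell genes, Gzma, Nkg7 and Prf1 of 10 NK cell genes, and Cd22, Cd79a and Igj of 7 B cell genes. Of these 11, 10 were well above background in all 6 mice, and Cd7 was above in all 3 control mice and in TCE mice 1 and 3. By probe, 12 of 48 (25%) were tested, against 40.8% of all probes on the array. At the other end, 22 of 48 probes (45.8%) were not well above background on any array, against 47.5% of all probes. The number of marker genes with a probe above background was 16, 16 and 14 in control mice 1, 2 and 3, and 15, 14 and 16 in TCE mice 1, 2 and 3. For T cell genes the number was 8 in each of the 6 mice, so that the count of detected T cell genes showed no difference between the groups.

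**Figure D1:**
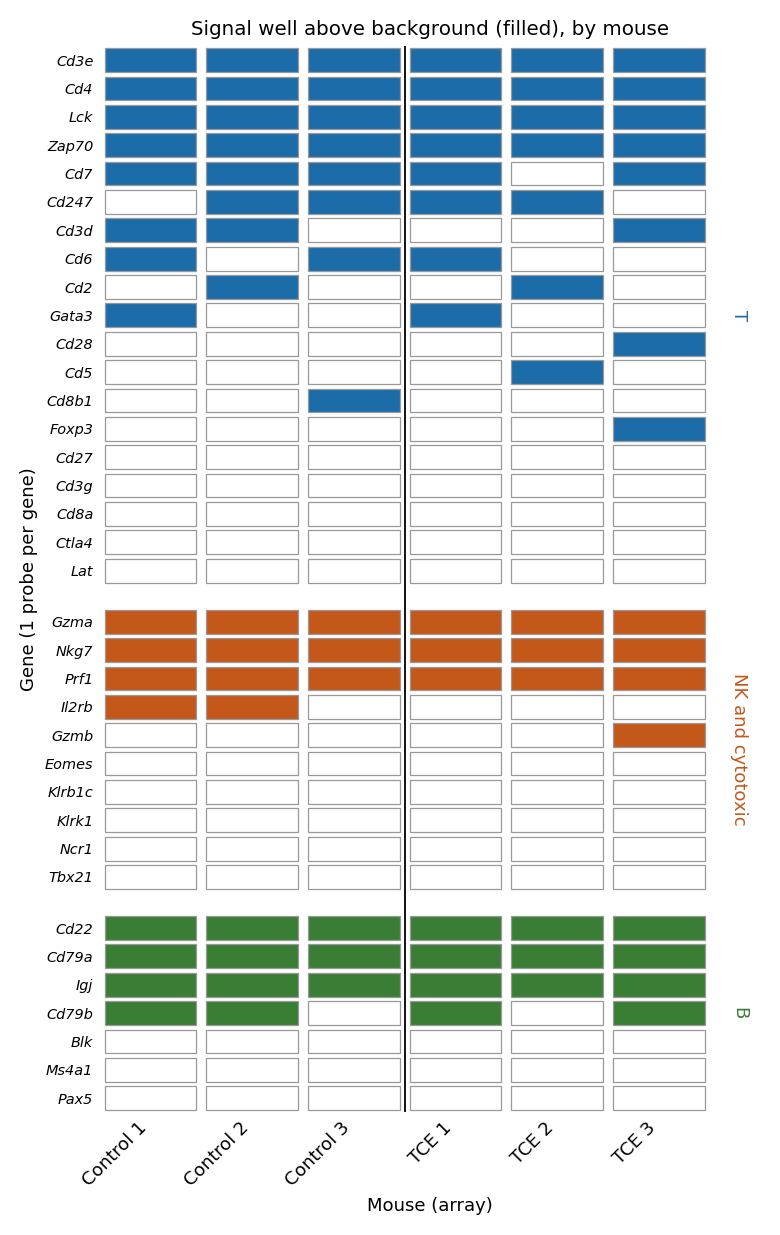
Detection of the 36 lymphocyte markers, with genes in rows (1 representative probe per gene, grouped into T, NK and cytotoxic, and B cell genes) and the 6 mice in columns; a filled cell marks a signal well above background. Filled rows across all mice are seen for 4 T cell genes, 3 NK cell genes and 3 B cell genes, and 13 rows are empty.

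The 13 genes whose representative probe stayed below that level in every mouse included defining markers of each lineage. Among T cell genes these were Cd3g, Cd8a, Cd27, Lat and Ctla4, among NK cell genes Klrb1c, Klrk1, Ncr1, Tbx21 and Eomes, and among B cell genes Ms4a1, Blk and Pax5. Ncr1 encodes the activating receptor NKp46 and Klrb1c the NK1.1 antigen, both used to identify mouse NK cells, and Ms4a1 encodes CD20 of B cells. Readings of such probes have only a bound and no order. Ncr1 read 2.65, 2.58 and 2.67 in control mice 1 to 3 and 2.59, 2.66 and 3.13 in TCE mice 1 to 3. Klrb1c read 2.98, 2.81 and 2.80 in control mice and 2.81, 2.80 and 2.91 in TCE mice. Ms4a1 read 2.81, 3.00 and 2.92 in control mice and 3.58, 2.82 and 2.91 in TCE mice. Both groups of these 3 probes were therefore below the level at which a difference can be measured, and no change is given.

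A further 12 genes were above background on some arrays without filling a group. Cd3d, which encodes the delta chain of CD3, was above in control mice 1 and 2 and in TCE mouse 3, with readings of 5.25, 5.36 and 4.93 in control mice and 3.86, 4.03 and 5.79 in TCE mice. Cd8b1, the beta chain of CD8, was above only in control mouse 3, with readings of 4.37, 4.73 and 5.29 in control mice and 3.25, 4.60 and 4.80 in TCE mice. Il2rb, the interleukin-2 receptor chain shared by NK cells and T cells, was above in control mice 1 and 2 and in 0 TCE mice. Cd79b, the partner of Cd79a in the B cell receptor, was above in 2 mice of each group, with readings of 6.44, 6.31 and 4.93 in control mice and 5.16, 5.66 and 6.68 in TCE mice. Cd247, which encodes the zeta chain, was also above in 2 mice of each group, and Cd2 and Gata3 in 1 mouse of each group. Cd28, Foxp3, the transcription factor of regulatory T cells, and the granzyme gene Gzmb were each above only in TCE mouse 3, and Cd5 only in TCE mouse 2. The representative probe of Cd6 was above in 2 control mice and 1 TCE mouse, and its other probe in 1 control mouse and 2 TCE mice. The detection calls of these genes were spread over both groups, and no test was made of them.

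Detection also differed between probes of the same gene, so what a probe reads has to be seen with its sequence. Probes of 60 bases were used on the array, and 12 of the 36 genes had 2 of them. For Cd4 and Cd79a, 1 probe was well above background in all 6 mice and the other in 0. The last 30 bases of both probes of these genes are shown 5′ to 3′ as the scanner annotation gives them, because the readings of both genes rest on 1 probe. Capitals mark the letters AATAAA, the usual polyadenylation signal, and a closing run of 6 A.
Cd4, above on 6 arrays: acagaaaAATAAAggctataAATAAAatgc
Cd4, above on 0 arrays: gcagtgtctactgagtgaaggtgataaggt
Cd79a, above on 6 arrays: gtgatAATAAAtccttcccaaagcAAAAAA
Cd79a, above on 0 arrays: gtacttacctccgcgtgcgcaatccagtcc
The detected Cd4 probe lies at chr6:124814711-124814770 of the mouse build mm9, on the minus strand, and the undetected one at chr6:124817706-124817765, upstream in the direction of transcription. The detected Cd79a probe is listed at chr12:53180558-53180617, whereas the RefSeq table places Cd79a on chromosome 7, and it is the only one of the 48 probes listed away from its gene's chromosome. The undetected Cd79a probe is listed at chr7:25684357-25684614, a span of 258 bases for 60 bases of probe, so that its listed position is interrupted. The Cd79a signal below is therefore that of a probe whose genomic origin was not settled from its listed position. Exon annotation of build mm9 was not used here, so whether a probe lies in coding sequence or in a UTR is not given.

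The letters AATAAA, searched on the probe strand only, were found in 9 of the 48 probes (18.8%) and in 10.1% of all 55681 probes. Of the 9 marker probes that hold them 6 were tested (66.7%), and of the 39 that do not 6 were tested (15.4%). Over all probes the shares were 54.8% with the letters and 39.3% without. The detected probes of Cd3e, Cd7, Lck and Gzma belong to this set, as do those of Cd4 and Cd79a.
Cd3e: taatgcaaaaggcAATAAAgtgtattggct
Cd7: ggaaaaattaAATAAAcacacaaatacatt
Lck: tgcctagcacacaccaggagctcAATAAAa
Gzma: gtctgatcacaAATAAAatcaacttgaatg
These 4 are shown because they carry the T cell and granzyme readings below, and in each the letters stand within the last 30 bases. A probe ending in 6 or more A was found for Cd79a and Cd247 (2 of 48, 4.17%) and for 1.19% of all probes.

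Several of the genes are neighbours, so that their probes are listed close together in the genome. Cd3g, Cd3d and Cd3e lie within 29 kb on chromosome 9 (44777868 to 44806887 on mm9), and of these 3 adjacent CD3 genes Cd3e was above background in all mice, Cd3d in 3 and Cd3g in 0. Cd8b1 and Cd8a lie within 41.7 kb on chromosome 6, and neither could be tested. The detected Cd4 probe lies within 369 kb of the probes of Cd27 on the same chromosome, and Cd27 was not above background in any mouse.

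No marker gene passed the threshold between the TCE and control groups (0 of 11 tested by limma, against 1.41% of all tested probes called in either direction, 0.383% lower and 1.03% higher in TCE). At an unadjusted limma p under 0.05, Cd3e and Cd22 were counted (2 of 11, against 17.9% of all tested probes), and both were lower in the TCE group, as were 6.95% of all tested probes at that p. The methods' t-test, run on the same values at an unadjusted p of 0.05 or less and the same fold change, called 0 marker genes and 2.61% of all tested probes. In 1 of the 11 genes, Cd4, all TCE mice lay below all control mice, against 10.2% of all tested probes, and 25.7% did not overlap in either direction. The fitted change was below 0 in 8 of the 11 genes, against 47.6% of all tested probes. Cd7 entered the test only through the control group, where it was the higher, so counts and medians are also given for the 10 genes above background in all 6 mice. Among these, 7 were below 0, against 47.3% of the 20812 probes of that kind. Their median change was -0.21 on the log2 scale, against 0.02 over those probes. In bulk liver, fewer cells of a type and less RNA per cell cannot be told apart in any of these values.

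**Figure D2:**
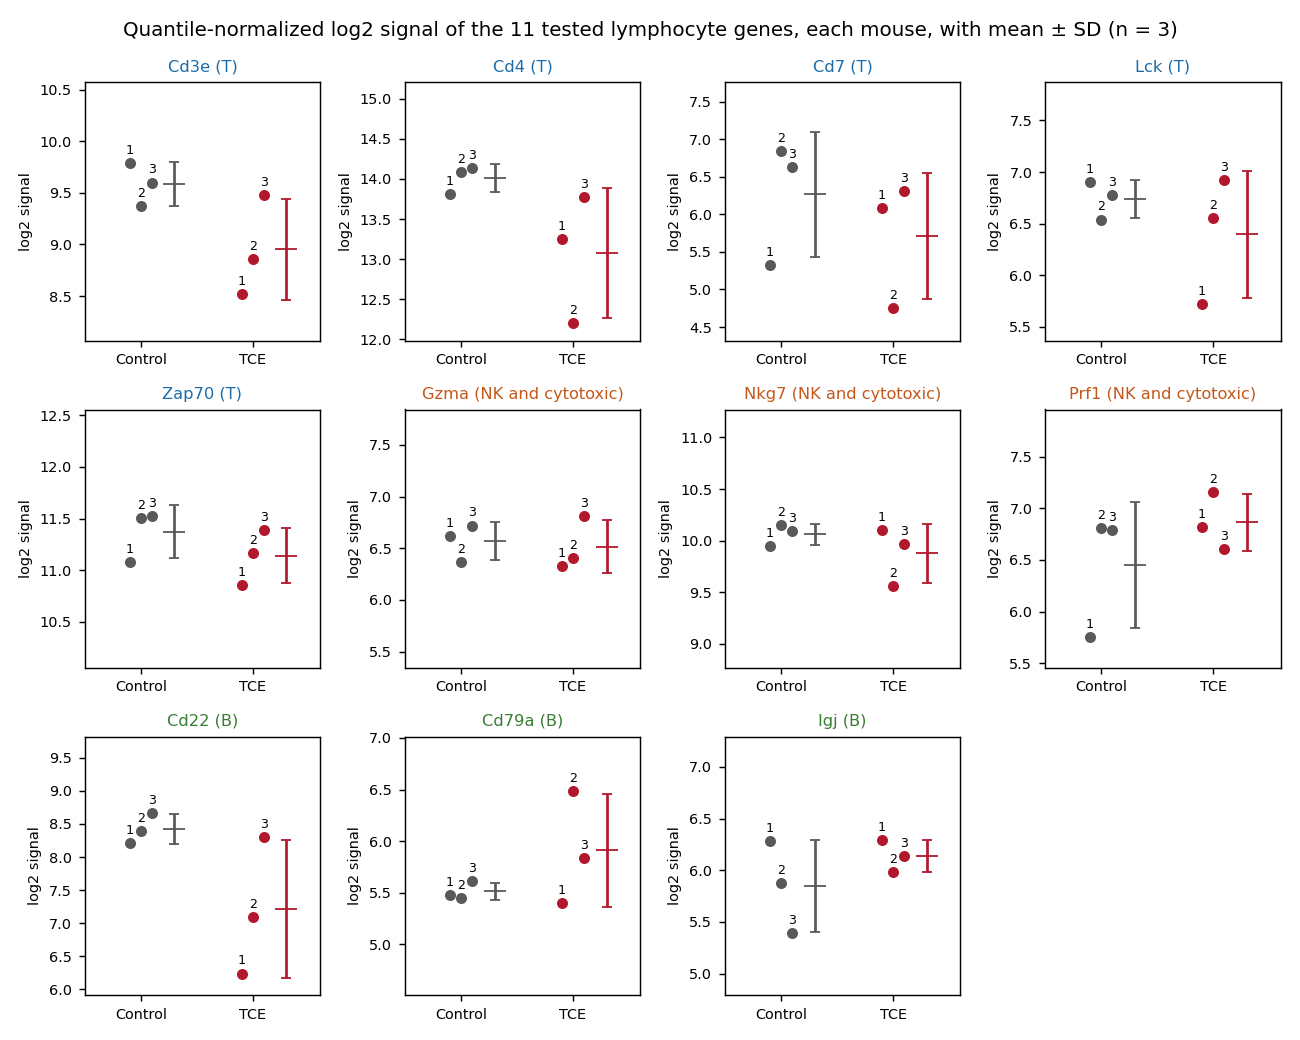
Quantile-normalized log2 signal (y axis) of the 11 tested lymphocyte markers in each control and TCE mouse, numbered by mouse, with the mean ± SD (n = 3) beside the points; axes differ between panels. In Cd3e, Cd4 and Cd22 TCE mice 1 and 2 lie below all control mice, while TCE mouse 3 lies within the control range in Cd3e and Cd22 and just below it in Cd4.

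Among T cell genes, the tested members were all lower on average in the TCE group, and TCE mice 1 and 2 carried most of the difference. Cd3e encodes the epsilon chain of CD3, required for the T cell receptor to reach the cell surface. Its signal was 9.79, 9.37 and 9.60 in control mice 1 to 3 and 8.52, 8.86 and 9.48 in TCE mice 1 to 3. TCE mice 1 and 2 were below every control mouse, and TCE mouse 3 was within the control range. The group means were 9.59 ± 0.21 and 8.95 ± 0.49 (SD, n = 3 each), a log2 change of -0.63 with a 95% interval from -1.26 to -0.01 (limma unadjusted p = 0.0482, adjusted p = 0.275).

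Cd4 encodes the co-receptor of helper T cells, and in mice it is also carried by some dendritic cells. The detected probe read 13.81, 14.09 and 14.14 in control mice and 13.25, 12.20 and 13.78 in TCE mice. The groups did not overlap, although TCE mouse 3 and control mouse 1 were nearly level and TCE mouse 2 stood lowest. The means of 14.01 ± 0.18 and 13.08 ± 0.80 (SD, n = 3 each) differed by -0.93 on the log2 scale (95% interval -1.87 to 0.00, limma unadjusted p = 0.0505, adjusted p = 0.279). An exact permutation test (two-sided) gave p = 0.1, the smallest that 3 against 3 mice allow. The other Cd4 probe read between 3.51 and 4.19 in the 6 mice, not well above background in any.

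The kinase genes also overlapped between groups. Zap70, which binds the phosphorylated chains of the receptor, read 11.08, 11.51 and 11.53 in control mice and 10.86, 11.17 and 11.39 in TCE mice. The log2 change was -0.23 (95% interval -0.70 to 0.24), and the other Zap70 probe, also above background in all mice, differed by -0.33 (95% interval -0.94 to 0.28). Lck, which starts the signalling cascade, read 6.90, 6.54 and 6.78 in control mice and 5.72, 6.55 and 6.92 in TCE mice, a log2 change of -0.34 (95% interval -1.08 to 0.40). Only TCE mouse 1 lay below the control range, and without it the change of Lck was 0.00. Cd7, a surface protein of T cells and NK cells, read 5.32, 6.85 and 6.63 in control mice and 6.08, 4.75 and 6.31 in TCE mice, with a log2 change of -0.55 and a wide 95% interval from -1.87 to 0.77. Its value rested on few readings, at -0.07 without TCE mouse 2, -0.26 without control mouse 2 and -1.02 without control mouse 1, and -0.25 under normexp background correction. The reading of TCE mouse 2 was not well above background, and control mouse 1 was also lower than TCE mice 1 and 3. For CD8, the co-receptor of cytotoxic T cells, no level could be compared. Cd8a read 3.27, 2.90 and 2.86 in control mice and 2.69, 2.69 and 3.03 in TCE mice, not above background in any, as was the case for Cd3g at 4.11, 3.19 and 4.18 in control mice and 2.48, 4.31 and 3.90 in TCE mice.

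Over the 4 T cell genes above background in all mice (Cd3e, Cd4, Lck and Zap70) the median log2 change was -0.49, with a range from -0.93 to -0.23. With Cd7, which the filter let in through its control readings, it was -0.55, the value of Cd7 itself. The control means of the 4 genes were far apart, at 14.01 for Cd4, 11.37 for Zap70, 9.59 for Cd3e and 6.74 for Lck. In the same mice Ptprc, a gene of leukocytes in general, had 5.30, Cd3d 5.18 and the other Cd4 probe 3.93. Whether the probes of the 4 genes read T cells alone was not tested. By mouse, the median deviation of the 4 genes from the control mean was -0.02, -0.06 and 0.08 in control mice 1 to 3 and -0.89, -0.46 and -0.05 in TCE mice 1 to 3. The control mice were close together, TCE mouse 1 was lowest, and TCE mouse 3 was near the controls. The median over all 5 genes was -0.29 under normexp background correction, and with 1 mouse left out it ranged from -0.85 to -0.37, the ends being without TCE mouse 3 and without control mouse 3. Without TCE mouse 3 the log2 changes were -0.90 for Cd3e (limma unadjusted p = 0.00461, adjusted p = 0.118) and -1.29 for Cd4 (limma unadjusted p = 0.0103, adjusted p = 0.162), neither past the threshold. Leaving out the lowest mouse instead gave smaller changes. Cd3e was -0.42 without TCE mouse 1 (limma unadjusted p = 0.136, adjusted p = 0.493). Cd4 was -0.49 without TCE mouse 2 (limma unadjusted p = 0.061, adjusted p = 0.304). On slide 2 alone, which leaves out control mouse 1, Cd3e differed by -0.53 and Cd4 by -1.04. The fitted changes of all 5 genes were below 0 also under scaling to the 75th percentile and under normexp.

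Markers of other cells were low in some of the same mice. The erythroid list had 5 of 8 genes tested, with hemoglobin genes among them, and its median deviation from the control mean was -0.52, -1.01 and 0.13 in TCE mice 1 to 3, against -0.19 to 0.12 in control mice. The log2 of its summed signal ranged from 16.24 to 16.76 in control mice and from 14.88 to 16.49 in TCE mice. Epb4.2 of the red cell membrane was well above background in 0 of 6 mice. The sinusoidal endothelium list had 8 of 8 genes tested, and its median deviation was -0.78 in TCE mouse 1, 0.03 in TCE mouse 2 and -0.02 in TCE mouse 3. Its summed signal ranged from 14.61 to 14.65 in control mice and from 13.76 to 14.72 in TCE mice on the log2 scale. Alas2, the erythroid enzyme of heme synthesis, was lower in all TCE mice, with a log2 change of -0.91 (limma adjusted p = 0.0215), short of 2-fold. The part of these cells in the T cell values was not tested.

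NK and cytotoxic lymphocyte genes had small fitted changes in both directions. Gzma encodes granzyme A, a protease of cytotoxic granules. It read 6.62, 6.37 and 6.72 in control mice and 6.33, 6.41 and 6.81 in TCE mice, so that the groups covered the same range. The log2 change was -0.05, with a 95% interval from -0.47 to 0.37 (limma adjusted p = 0.909), and its sign turned under normexp background correction (0.01). Nkg7, a granule membrane protein of NK cells and cytotoxic T cells, read 9.95, 10.15 and 10.09 in control mice and 10.10, 9.56 and 9.97 in TCE mice. TCE mouse 2 was the lowest and the other values overlapped, for a log2 change of -0.19 (95% interval -0.59 to 0.22) that was -0.03 without that mouse. The other Nkg7 probe was above background in 1 mouse of each group, with means of 4.67 in control and 4.28 in TCE mice, and was not tested. Prf1, the pore-forming protein perforin, read 5.75, 6.81 and 6.79 in control mice and 6.82, 7.16 and 6.61 in TCE mice. Its log2 change of 0.41 (95% interval -0.36 to 1.18) came with a low reading in control mouse 1, and on slide 2 alone, without that mouse, it was 0.06. The median over the 3 genes was -0.05, and all 3 intervals for these genes include 0. The intervals of Gzma and of the tested Nkg7 probe exclude a 2-fold change in either direction.

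B cell genes had fitted changes in both directions as well. Cd22 encodes an inhibitory co-receptor of the B cell receptor. It read 8.21, 8.39 and 8.67 in control mice and 6.24, 7.09 and 8.31 in TCE mice. TCE mice 1 and 2 were far below the controls and TCE mouse 3 was inside their range, the same order of TCE mice as in Cd3e. The means were 8.42 ± 0.23 and 7.21 ± 1.04 (SD, n = 3 each), the largest fitted difference among the 11 genes at -1.21 on the log2 scale (95% interval -2.40 to -0.01, limma unadjusted p = 0.0480, adjusted p = 0.274). The change of Cd22 was -1.75 without TCE mouse 3 (limma unadjusted p = 0.00158, adjusted p = 0.0751). It was -0.72 without TCE mouse 1 (limma unadjusted p = 0.111, adjusted p = 0.462), and -1.31 on slide 2 alone.

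The other tested B cell genes were not lower in the TCE group. Igj encodes the joining chain of secreted IgA and IgM, is made by plasma cells and is named Jchain in RefSeq. It read 6.28, 5.88 and 5.39 in control mice and 6.29, 5.98 and 6.14 in TCE mice, and the log2 change was 0.29 (95% interval -0.29 to 0.86). It was 0.06 without control mouse 3 and 0.50 without control mouse 1. Cd79a, read by the probe listed on chromosome 12, gave 5.48, 5.45 and 5.61 in control mice and 5.40, 6.49 and 5.84 in TCE mice, with a log2 change of 0.40 (95% interval -0.26 to 1.06) that was 0.11 without TCE mouse 2 and 0.66 without TCE mouse 1. Cd79b was not tested, as described above. The median of the 3 B cell genes was 0.29, and without the Cd79a probe it was -0.46. With Cd22 far below 0, the sign of the median depended on both Cd79a and Igj.

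**Figure D3:**
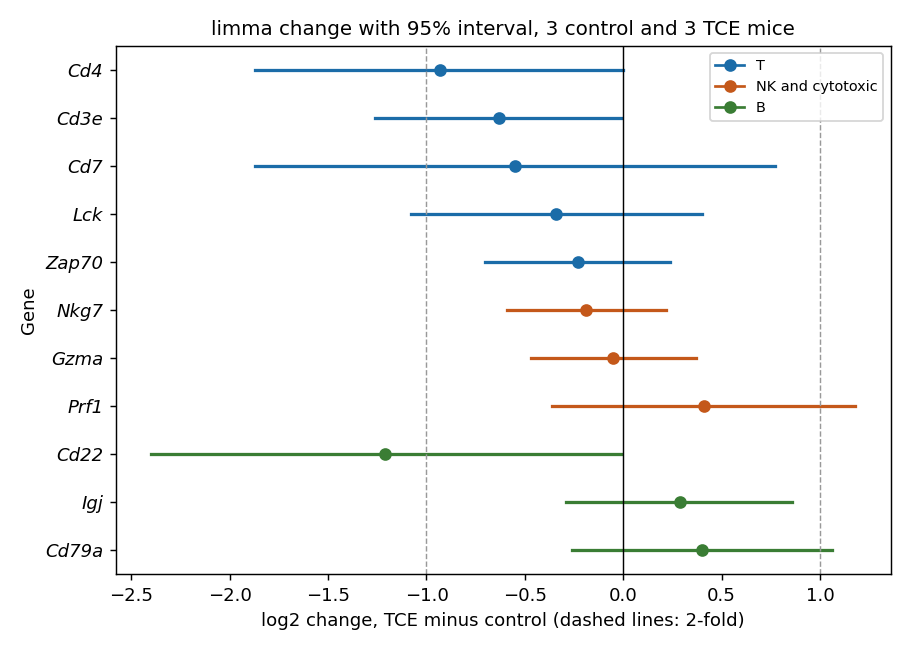
Fitted log2 change (x axis, TCE minus control, 3 mice per group) of each tested lymphocyte marker with its 95% interval, coloured by T, NK and cytotoxic, or B cell class; dashed lines mark 2-fold. All 5 T cell genes lie left of 0 (Cd7 entered through the control group alone), the 3 NK cell genes lie between -0.19 and 0.41, and Cd22 at -1.21 is apart from the other B cell genes.

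Side by side, over genes above background in all mice, the medians were -0.49 for 4 T cell genes, -0.05 for 3 NK cell genes and 0.29 for 3 B cell genes. The genes were read in the same 6 mice, so the classes are not independent of each other, and no difference between them was tested. Of the 11 genes, TCE mouse 1 had the lowest value of all 6 mice in 6, TCE mouse 2 in 3 and TCE mouse 3 in 0.

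Further lymphocyte genes were read from separate lists. Of 22 other T cell genes, 6 were tested and 11 were not above background on any array, among them Cd69 and Il7r. No gene of this list passed the threshold, and 3 were fitted below 0. Thy1, a surface protein of T cells, read 7.49, 7.18 and 7.51 in control mice and 6.89, 6.65 and 7.50 in TCE mice, with a log2 change of -0.38 (95% interval -0.96 to 0.19). Icos, a costimulatory receptor, differed by -0.30 (limma adjusted p = 0.290) with all TCE mice below all control mice, and Cxcr3, a chemokine receptor of activated T cells that entered the test through the control group alone, by -0.36 (limma adjusted p = 0.289). The median of the 6 was -0.15.

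Of 22 other NK and cytotoxic genes, 6 were tested and 14 were not above background on any array, including Klrd1, Klrc1 and Ifng. Ccl5, a chemokine stored by cytotoxic lymphocytes, read 8.49, 8.03 and 7.69 in control mice and 7.37, 7.40 and 7.30 in TCE mice. All TCE mice were below all control mice, with a log2 change of -0.71 (95% interval -1.22 to -0.20, limma unadjusted p = 0.0134, adjusted p = 0.158), which did not pass the threshold. Ctsw, a protease of cytotoxic cells that entered the test through the TCE group alone, differed by 0.67 (95% interval -0.20 to 1.54), and Klra1, an NK receptor with close paralogs that its probe may also read, by -0.79 (95% interval -2.39 to 0.80). The median of these 6 genes was -0.32.

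Of 25 other B and plasma cell genes, 8 were tested and 14 were not above background on any array, among them Fcer2a and the plasma cell genes Mzb1 and Tnfrsf17. Probes of Tnfrsf13b, a receptor for B cell survival factors, differed in detection. The tested probe was above background in 0 control mice and in all 3 TCE mice, at 4.81, 3.04 and 3.55 in control mice and 5.81, 5.54 and 5.51 in TCE mice. It entered the test through the TCE group alone, which favours a difference in that direction, and it did not pass the threshold (limma adjusted p = 0.106). Another probe of the gene was above background in control mice 2 and 3 and in 0 TCE mice, with means of 5.11 and 4.22, and the remaining one in 0 mice, so no direction is given for the gene. Btk, a kinase of the B cell receptor, differed by 0.47 (limma unadjusted p = 0.0414, adjusted p = 0.258), and Blnk, its adaptor, by -0.55 (95% interval -1.22 to 0.13). The median of the 8 genes was 0.14.

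**Figure D4:**
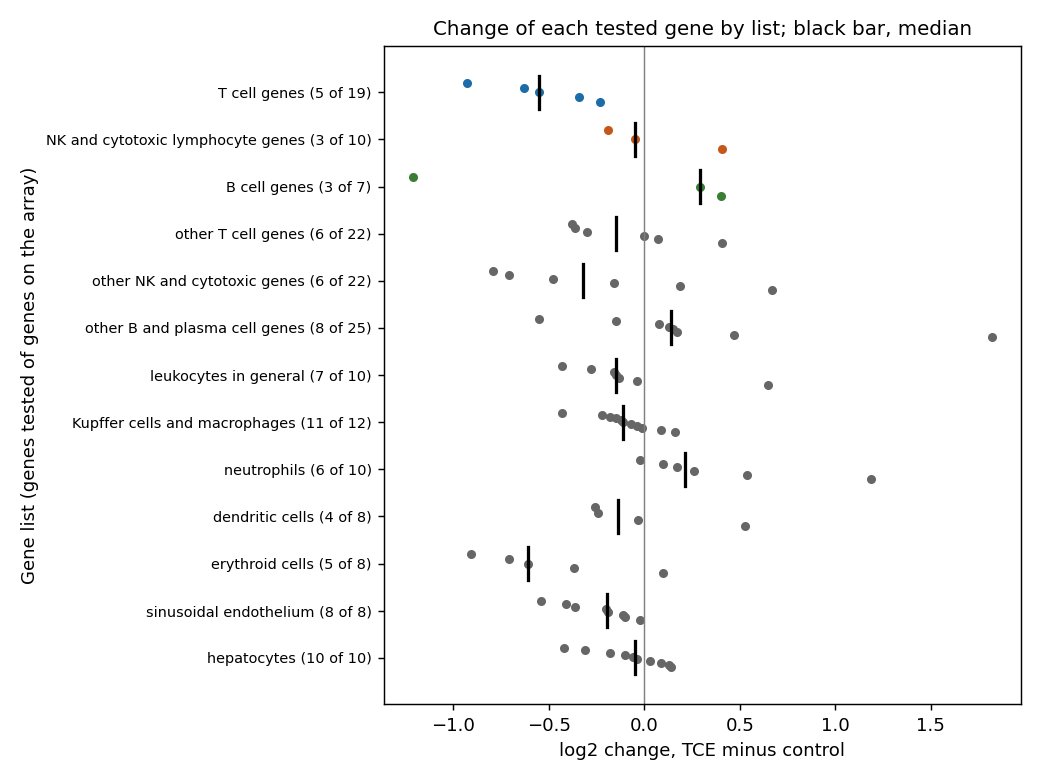
Fitted log2 change (x axis, TCE minus control) of each tested gene, in rows by gene list with the number tested of the number on the array; the black bar is the median of the list. The T cell markers lie at -0.93 to -0.23, whereas the other T cell genes lie on both sides of 0, at -0.38 to 0.41. The erythroid genes lie at -0.91 to 0.10, the Kupffer cell genes at -0.43 to 0.16 and the hepatocyte genes at -0.42 to 0.14.

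Markers shared by all leukocytes were read as well. Of 10 such genes 7 were tested, with changes from -0.43 to 0.65 and a median of -0.15. Of these 7, 6 were fitted below 0, against 47.6% of all tested probes, and only Ptprc was above. Ptprc, which encodes the common leukocyte antigen CD45, read 5.67, 5.65 and 4.58 in control mice and 5.73, 5.76 and 6.35 in TCE mice, a log2 change of 0.65 (95% interval -0.17 to 1.47) with control mouse 3 not above background, so that it entered the test through the TCE group alone. Il10ra, the interleukin-10 receptor, differed by -0.43 (limma unadjusted p = 0.0118, adjusted p = 0.150). Kupffer cell and macrophage genes had 11 of 12 tested, in all mice above background, with a median of -0.11. Of 10 neutrophil genes 6 were tested, 5 fitted above 0 and 1 below, with a median of 0.22. S100a8, a neutrophil protein, differed most, by 1.19 (limma adjusted p = 0.0886), whereas S100a9 differed by 0.26 and Ly6g by -0.02. Of 8 dendritic cell genes 4 were tested, 3 fitted below 0 and 1 above, with a median of -0.14. The 1 above was Bst2, also induced by interferon, at 0.53 (limma adjusted p = 0.121). No gene of the leukocyte, Kupffer cell, neutrophil, dendritic cell, endothelium, erythroid or hepatocyte lists passed the threshold by its representative probe. Another probe of Siglech, a receptor of plasmacytoid dendritic cells, did, at -1.03 (limma adjusted p = 0.0374), while the representative probe differed by -0.03.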

How the data were processed

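The authors scanned 1-colour arrays (1 per mouse) and extracted the spots with Agilent Feature Extraction 10.7.1.1. The deposited scanner output gives a background-subtracted intensity, a mean pixel intensity and a local background intensity per spot, with flags. The deposited table of means per group, on the log2 scale, supplied gene symbols, and these means agreed within 0.01 for 99.99% of 55663 probes. Its 6 columns of detection flags, GO terms and comparison columns were not used.

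Control spots and outlier spots (123 to 189 per array) were removed, the intensity was put on the log2 scale without a pseudocount, replicate spots were averaged per probe, and the arrays were quantile normalized. A probe counted as well above background on an array where a share over 0.5 of its spots did. The test used R 4.3.3 with limma 3.58.1 and group as the only factor (also statmod 1.5.0, and data.table at version 1.17.8). Positions are those of the annotation on mm9. The procedure was tested on simulated data. The 36 genes and the other lists were chosen with earlier results of these data known. Of 173 genes listed, 2 had no matching symbol. All marker genes are accounted for. Values in every mouse are given for marker genes with an unadjusted p under 0.05, defining markers of a lineage and the 3 genes of each class with the highest signal. From the other T, NK and B cell lists the 3 tested genes with the smallest limma p are described, some without values in every mouse. Genes named from the remaining lists were not all chosen by p. Alternatives were other normalization, background correction, filters, outlier spots kept, array weights, variance trend, blocks for replicate number and slide, each mouse left out, other probe rules, no fold limit and the methods' t-test.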

Additional observations from a re-analysis of the deposited data

How the results depend on the processing

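The number of marker genes past the threshold was 0 under every alternative tried, among them the methods' t-test. Of 186 changes of single marker genes under alternatives, 182 kept their direction and 4 reversed, all of Gzma (-0.05), which was 0.01 with normexp background correction and ranged from -0.20 to 0.04 with 1 mouse left out. Many of the 186 could not reverse, so the count is no measure of stability. The filters, the variance trend, the replicate block and the t-test leave the log2 change as it was. The slide block gave the same log2 changes as leaving out control mouse 1. The median of the tested B cell genes (0.29) ranged from 0.06 to 0.38 with 1 mouse left out and was -0.46 without the Cd79a probe listed on chromosome 12, an alternative chosen after seeing the data. The cause was not tested, apart from the fewer probes that the last setting holds. With 1 mouse left out, the change of Cd3e ranged from -0.90 to -0.42, that of Cd4 from -1.29 to -0.49 and that of Cd22 from -1.75 to -0.72.

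The replicate numbers of the groups did not mark shared animals, and deviations of mice with the same number correlated at 0.09, 0.007 and -0.092. With the replicate block, 63 probes of the whole array were past the threshold in place of 321, and 0 marker genes, with Cd22 at an adjusted p of 0.246 by limma. Over all probes the count was 96 without the filter on dim probes, 177 with the slide as a block, 594 by the methods' t-test unadjusted and 35 after adjustment, and 124 to 242 with 1 mouse left out (163, 124 and 145 without control mouse 1, 2 or 3, and 135 without TCE mouse 1). Signals near background limit the readings: 25 of the 36 genes could not be tested, as neither group had all 3 mice above background. A rise that brought all 3 TCE mice above background would have been tested, whereas changes below or around that level were not measured.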
